A study of Mus musculus with 3 samples.

Results

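TGF-beta and BMP signalling genes were followed in mouse kidney: the ligands Tgfb1, Tgfb2, Tgfb3, Bmp2, Bmp4 and Bmp7, the TGF-beta receptors Tgfbr1 and Tgfbr2, the inhibitory Smad gene Smad7 and the latency protein gene Ltbp1. The members were taken by gene symbol, and all 10 were found among the 19938 genes of the table, each read by 1 probe set. Total RNA of kidney from female CBL/6 mice of 8 to 10 weeks was hybridised to Affymetrix Mouse Gene 1.0 ST arrays, whose probes are spread over the exons of a transcript. The control array held kidney of non-treated mice. The NTS array held kidney of mice given a single injection of sheep nephrotoxic serum (NTS), an antiserum against the glomerulus, dosed at 13.5 ug per g body weight. The NTS/PGE2 array held kidney of mice given the same serum followed by the lipid mediator prostaglandin E2 (PGE2), 5 ug per g daily from day 2. Treated mice were killed on day 7. The labels do not give the number of mice behind an array, or whether the control mice received any vehicle.

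TGF-beta ligands are secreted in a latent form, bound to their own propeptide and to a latent TGF-beta binding protein such as LTBP1, and are released from it by integrins, thrombospondin and proteases. The active ligand brings together the type II receptor TGFBR2 and the type I receptor TGFBR1, and TGFBR1 phosphorylates SMAD2 and SMAD3. BMP ligands act through their own receptors on SMAD1, SMAD5 and SMAD9, and both arms share SMAD4. In kidney, TGF-beta is best known for driving matrix deposition and fibrosis, whereas BMP7 is required for nephron formation and is regarded as a counterweight to TGF-beta in the injured adult kidney. SMAD7 is an inhibitory Smad that is induced by the pathway and turns it down.

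Values are on a log2 scale after RMA, so a difference of 1 is 2-fold. The 3 groups had 1 array each, so no difference had a replicate check and no p-value was computed. The precision is limited by that number, and the spread between mice is unknown. The only spread the arrays give is the disagreement between the 2 probe sets of a gene, taken over 447 genes with both at or above the median on every array. The SD of 1 probe set's difference was 0.19 in each comparison with the NTS array, and 0.12 between NTS/PGE2 and control. It leaves out the spread between mice, and probe-set disagreement alone can exceed it. A difference given as beyond this SD is therefore a description and not a call. The median of all probe sets was 7.11 in control, 7.11 in NTS and 7.14 in NTS/PGE2 kidney. Only genes whose higher value was at or above the median of its array were counted. Levels of different genes are not set against each other, since each probe set has its own response. As a check of the tissue, all 10 proximal tubule markers and all 8 loop and distal tubule markers passed this filter in each comparison. The control array also held transcripts of fat. The summed linear signal of 10 fat markers was 18452 on it but 2881 and 5187 on the NTS and NTS/PGE2 arrays, and Ucp1, the uncoupling protein of brown fat, read 11.84, 5.72 and 5.91. Both comparisons that use the control array carry this difference. The comparison of NTS/PGE2 with NTS does not use that array. In it 4 of the 10 fat markers passed the filter, and all 4 differed at least 2-fold, Fabp4 by 1.04, Lpl by 1.72, Cidec by -1.31 and Plin4 by -1.92. Without Lpl, the lipoprotein lipase gene and the brightest of the list, the fat sum was 14956, 1832 and 1734 in control, NTS and NTS/PGE2 kidney. The part of fat in the members' differences was not tested.

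Upstream sequence is shown for the 3 members with the largest differences among those that passed the filter, Bmp4 and Ltbp1, which were lowest on the NTS array, and Tgfbr1, which was highest there. From the table of RefSeq sequences for GRCm38.p6, windows were read for 6 of the 10 members. Member entries on a further chromosome were left out, so a member without a window may still have an entry. Each run gives the 250 bases before the first listed start of the gene, 5′ to 3′ on its own strand. Capitals mark CAGAC, a Smad element, read on both strands (GTCTG on the other), and GGCGCC, a GC-rich Smad element, which reads the same on both strands. The motifs do not overlap each other in these windows. The windows are chr14:46390670-46390919 on the minus strand for Bmp4, chr17:75005279-75005528 on the plus strand for Ltbp1 and chr4:47352972-47353221 on the plus strand for Tgfbr1.
Bmp4: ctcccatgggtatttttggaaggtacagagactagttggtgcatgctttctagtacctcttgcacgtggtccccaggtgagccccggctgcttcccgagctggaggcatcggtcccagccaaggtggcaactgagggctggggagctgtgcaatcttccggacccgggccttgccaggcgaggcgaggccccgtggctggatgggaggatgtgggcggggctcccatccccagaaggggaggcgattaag
Ltbp1: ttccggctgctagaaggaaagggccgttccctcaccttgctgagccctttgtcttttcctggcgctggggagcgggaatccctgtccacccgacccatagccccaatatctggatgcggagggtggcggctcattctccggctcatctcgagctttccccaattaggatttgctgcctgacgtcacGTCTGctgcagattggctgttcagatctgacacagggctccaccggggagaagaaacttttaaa
Tgfbr1: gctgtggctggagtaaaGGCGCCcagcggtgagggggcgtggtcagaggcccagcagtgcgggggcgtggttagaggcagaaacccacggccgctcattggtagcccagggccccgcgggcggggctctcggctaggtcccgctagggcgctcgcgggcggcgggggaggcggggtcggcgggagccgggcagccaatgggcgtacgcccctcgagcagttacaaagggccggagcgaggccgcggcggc

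The Bmp4 window held neither motif. The Ltbp1 window held 1 CAGAC, on the minus strand and beginning 64 bases before the start, and the window of a second Ltbp1 start held 2. The Tgfbr1 window held 1 GGCGCC, 233 bases before the start, and the window of a second Tgfbr1 start held 1 CAGAC, 203 bases before it. Among 32851 windows of the same length, with no chromosome left out, 42.2% held at least 1 CAGAC and 9.59% at least 1 GGCGCC. A match describes the letters of the window and not a binding site, and letters missing from it say nothing of the factor.

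The first comparison, NTS against control, asked how the kidney's transcripts stood 7 days after the serum. None of the 10 members differed 2-fold. Bmp4 and Ltbp1 came close, at 1.99-fold and 1.97-fold lower on the NTS array, Bmp2 was 1.63-fold lower at a dim level, and Tgfbr1 was 1.39-fold higher. The other members lay within 0.3 log2 units of control. Of the 8 members that passed the filter, 0 were at least 2-fold higher and 0 at least 2-fold lower, where 2.70% and 5.42% of 11778 genes were. At 1.5-fold, 0 were higher and 2 lower, where 7.62% and 11.9% of all genes were. The median difference of the 10 members, with the dim Bmp2 and Tgfb3 among them, was -0.14. That of the 8 that passed was -0.02, and that of all genes 0.

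With NTS/PGE2 set against NTS, the question was how PGE2 given during nephritis bore on these levels. Under PGE2 Bmp4 stood 1.76-fold higher and Ltbp1 1.45-fold higher, while Tgfbr1 was 1.45-fold lower and Tgfb1 1.28-fold lower. Again 0 of 8 members reached 2-fold in either direction, against 4.15% of 11699 genes higher and 3.28% lower. At 1.5-fold, 1 member, Bmp4, was higher and 0 were lower, against 9.98% and 8.93% of genes. The members' median difference was 0.0029.

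Lastly, NTS/PGE2 was set against control to see which differences from untreated kidney were left. The largest member differences were those of Bmp2, 1.42-fold lower, and Ltbp1, 1.36-fold lower; Bmp4 was 1.13-fold lower and Tgfbr1 1.04-fold lower. The count was 0 of 8 in both directions at 2-fold and at 1.5-fold. Among 11534 genes 0.0607% were at least 2-fold higher and 0.659% at least 2-fold lower, and 0.555% and 2.15% at 1.5-fold. The members' median was -0.18, with 8 of 10 lower and 2 higher, the dim Tgfb3 and Bmp2 included. For the 8 that passed the filter the median was -0.14. Of all 19938 genes 5486 were lower, 6124 higher and 8328 equal, with a median of 0. The 3 comparisons share arrays in pairs, so they are not independent of each other.

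**Figure D1:**
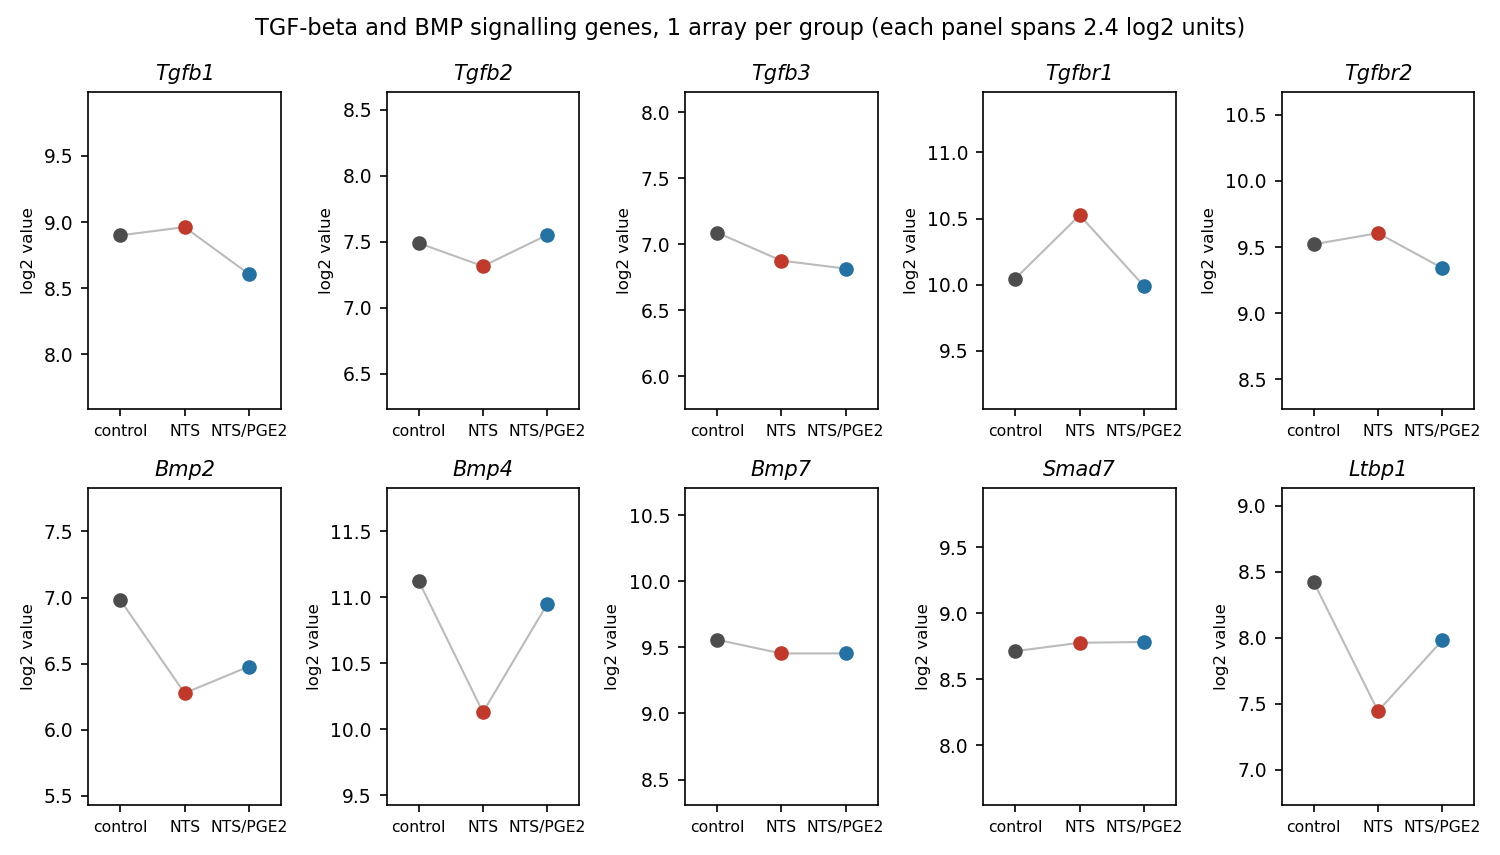
Log2 values (vertical axis) of the 10 genes on the control, NTS and NTS/PGE2 arrays (horizontal axis), 1 point per array, with panels of equal height in log2 units and the lines only guiding the eye. Bmp4 and Ltbp1 are lowest on the NTS array, at 10.13 and 7.45, Tgfbr1 is highest there, at 10.53, and Bmp7 and Smad7 differ by at most 0.10 and 0.07.

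Among the TGF-beta ligands, Tgfb1, the isoform most studied in renal fibrosis, read 8.90 in control, 8.96 in NTS and 8.61 in NTS/PGE2 kidney. Its control and NTS levels differed by 0.06, less than the probe-set SD. It was lowest on the NTS/PGE2 array, by a log2 difference of -0.36 from the NTS array and -0.29 from control, both beyond that SD. Tgfb2, an isoform with its own role in development, read 7.49, 7.31 and 7.55 on the control, NTS and NTS/PGE2 arrays. It was lowest on the NTS array, by -0.17 from control, within the SD, and NTS/PGE2 stood above NTS by 0.24. Tgfb3, the third isoform, read 7.09, 6.88 and 6.82, below the median of every array, so it entered no count at 2-fold or 1.5-fold. Its NTS/PGE2 value lay -0.27 from control. Against control, no TGF-beta ligand was higher on the NTS array by more than the SD.

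Of the BMP ligands, Bmp4, which patterns the ureter and its surrounding mesenchyme in development, read 11.12 in control, 10.13 in NTS and 10.95 in NTS/PGE2 kidney. The NTS array stood apart, with a log2 difference of -0.99 from control and of 0.82 to the NTS/PGE2 array. The remaining difference between NTS/PGE2 and control was -0.18, slightly beyond the SD of 0.12. Bmp2, a close relative of Bmp4, read 6.98, 6.28 and 6.48. Its control value was the highest, with differences of -0.70 for NTS and -0.50 for NTS/PGE2 from control, but all 3 values lay below the array medians, so it was not counted. Bmp7, the ligand needed for nephron formation, read 9.56 on the control array and 9.45 on both other arrays. The difference of -0.10 was within the SD, and the NTS and NTS/PGE2 values were exactly equal. RMA's median polish over 3 arrays often returns equal values, as it did on all 3 arrays for 29.1% of genes, so equality does not show that a level was the same.

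In the list of the other BMP and GDF ligands, 12 were measured and 3 passed the filter. Bmp6, a ligand known for its part in iron control, went the other way from Bmp4, with 10.02 in control, 10.83 in NTS and 10.02 in NTS/PGE2 kidney. Its difference was 0.81 in the first comparison and -0.81 in the second. Gdf10, also called BMP3b, read 8.51, 7.42 and 8.51, with differences of -1.09 and 1.09, so it was lower on the NTS array alone. The third, Gdf7, differed by 0.07 at most. The list's medians were 0 in all 3 comparisons, with 6, 7 and 8 of the 12 genes exactly equal, most of them dim.

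Ltbp1, the binding protein that holds latent TGF-beta in the matrix, read 8.42 in control, 7.45 in NTS and 7.98 in NTS/PGE2 kidney. Every pair of arrays differed by more than the SD, at -0.98 in the first comparison, 0.54 in the second and -0.44 in the third. The NTS/PGE2 level thus lay between the other arrays. Against control, -0.44 lay below the 5th percentile of all genes that passed the filter, which was -0.39. It was the only one of the 8 passing members outside the 5th to 95th percentile there. In the first comparison this range ran from -1.04 to 0.74 and held all 8, as did the range from -0.82 to 0.92 in the second, where Bmp4 at 0.82 was the nearest to a limit.

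**Figure D2:**
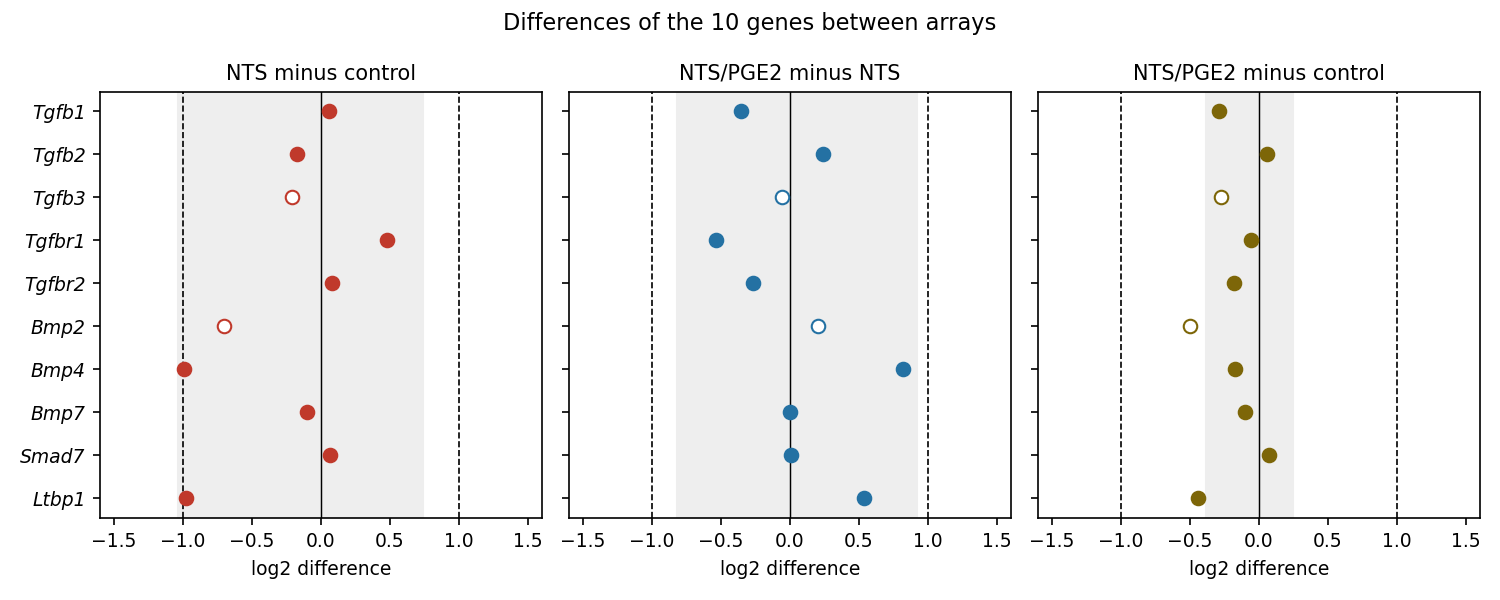
Log2 differences (horizontal axis) of the 10 genes (vertical axis) in the 3 comparisons, with filled points for genes that passed the brightness filter and open points for Tgfb3 and Bmp2, which did not. Dashed lines mark 2-fold and the grey band the 5th to 95th percentile of all genes that passed; no point lies beyond 2-fold, and Ltbp1 at -0.44 is the only filled point outside a band.

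The list of other genes for the latency and activation of TGF-beta held 11 measured genes. On the NTS array 2 were at least 2-fold lower than on the control array and 0 at least 2-fold higher. Of all genes that passed the filter, 5.42% and 2.70% were. Itgb8, the beta 8 chain of an integrin that releases active TGF-beta, read 11.34, 10.03 and 11.57 on the control, NTS and NTS/PGE2 arrays, with differences of -1.30 and then 1.53. Ltbp4, another latent TGF-beta binding protein, read 9.34, 8.09 and 9.05, with differences of -1.25 and 0.96. Lrrc32 (GARP), which anchors latent TGF-beta on the cell surface, read 9.31, 8.39 and 8.92. Thbs1, the activator thrombospondin 1, read 10.74, 9.97 and 10.93. These 4 were lowest on the NTS array, like Ltbp1, but the list also held genes that were not. Itgav, the partner chain of the beta 8 and beta 6 integrins, was higher on the NTS array by 0.46, and Furin, the protease that cleaves the TGF-beta precursor, by 0.43. Ltbp3 differed by 0.06, Itgb6 by -0.02, and Ltbp2 by 0.07. The list's median was -0.02 in the first comparison and 0.13 in the second. In the second comparison 1 of its genes, Itgb8, was at least 2-fold higher, beside 4.15% of all genes that passed the filter.

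Of the receptors, Tgfbr1, the type I kinase that phosphorylates SMAD2 and SMAD3, read 10.05 in control, 10.53 in NTS and 9.99 in NTS/PGE2 kidney. It was the only member higher on the NTS array than on both other arrays by more than the SD, with differences of 0.48 and -0.54, and the control and NTS/PGE2 levels differed by -0.06. Tgfbr2, the type II receptor that binds the ligand first, read 9.52, 9.61 and 9.34. NTS and control differed by 0.08, within the SD, and NTS/PGE2 was lowest, at -0.26 from NTS and -0.18 from control.

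The other TGF-beta receptors and co-receptors went both ways on the NTS array, with 4 of 7 lower and 3 higher. The filter was passed by 6 of them, and 1 was at least 2-fold lower, beside 5.42% of all genes that passed. That was Eng (endoglin), a co-receptor of endothelium, at -2.01, and 1.89 higher again on the NTS/PGE2 array. Tgfbr3 (betaglycan), which presents TGF-beta 2 to the kinases, read 9.72, 9.17 and 9.61. Bambi, a decoy receptor without a kinase, read 7.96, 7.49 and 7.94, and Acvrl1, the endothelial type I receptor, 8.31, 7.99 and 8.31. Medians were -0.33 in the first comparison and 0.33 in the second. Of 9 BMP receptors and co-receptors measured, 8 passed the filter, and 0 of these differed 1.5-fold in any comparison. The largest difference among them was 0.20, for the type II receptor Bmpr2, in the second comparison. Bmpr1a, the main BMP type I receptor, read 10.09, 10.11 and 10.09.

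Smad7, the inhibitory Smad, read 8.71 on the control array and 8.78 on both the NTS and the NTS/PGE2 array. Its differences from control were 0.06 and 0.07, within the SD. Smad6, the inhibitory Smad of the BMP arm, read 8.17 on all 3 arrays. The list of Smads and their regulators held 21 genes, all of which passed the filter. None was 2-fold different between NTS and control, with 14 higher, 3 lower and a median of 0.10. Of all 19938 genes, 6540 were higher and 6029 lower there, and 6996 higher and 5837 lower in the second comparison. In that comparison 4 of the 21 were higher and 14 lower, with a median of -0.19. At least 2-fold lower was 1 gene, beside 3.28% of all genes that passed. That was Tgif1, a corepressor of Smads, which read 9.26, 10.17 and 9.04, at 0.91 in the first comparison and -1.13 in the second. The receptor-regulated Smads differed among themselves. Smad1 of the BMP arm read 8.28, 9.05 and 8.26, and Smad3 of the TGF-beta arm 9.63, 10.09 and 9.55. Smad5, also of the BMP arm, was lower on the NTS array, with 9.44, 8.89 and 9.33. The ubiquitin ligases that remove Smads and receptors split as well, with Smurf1 at 8.51, 8.98 and 8.40 and Smurf2, the mean of 2 probe sets, at 8.51, 7.90 and 8.59.

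**Figure D3:**
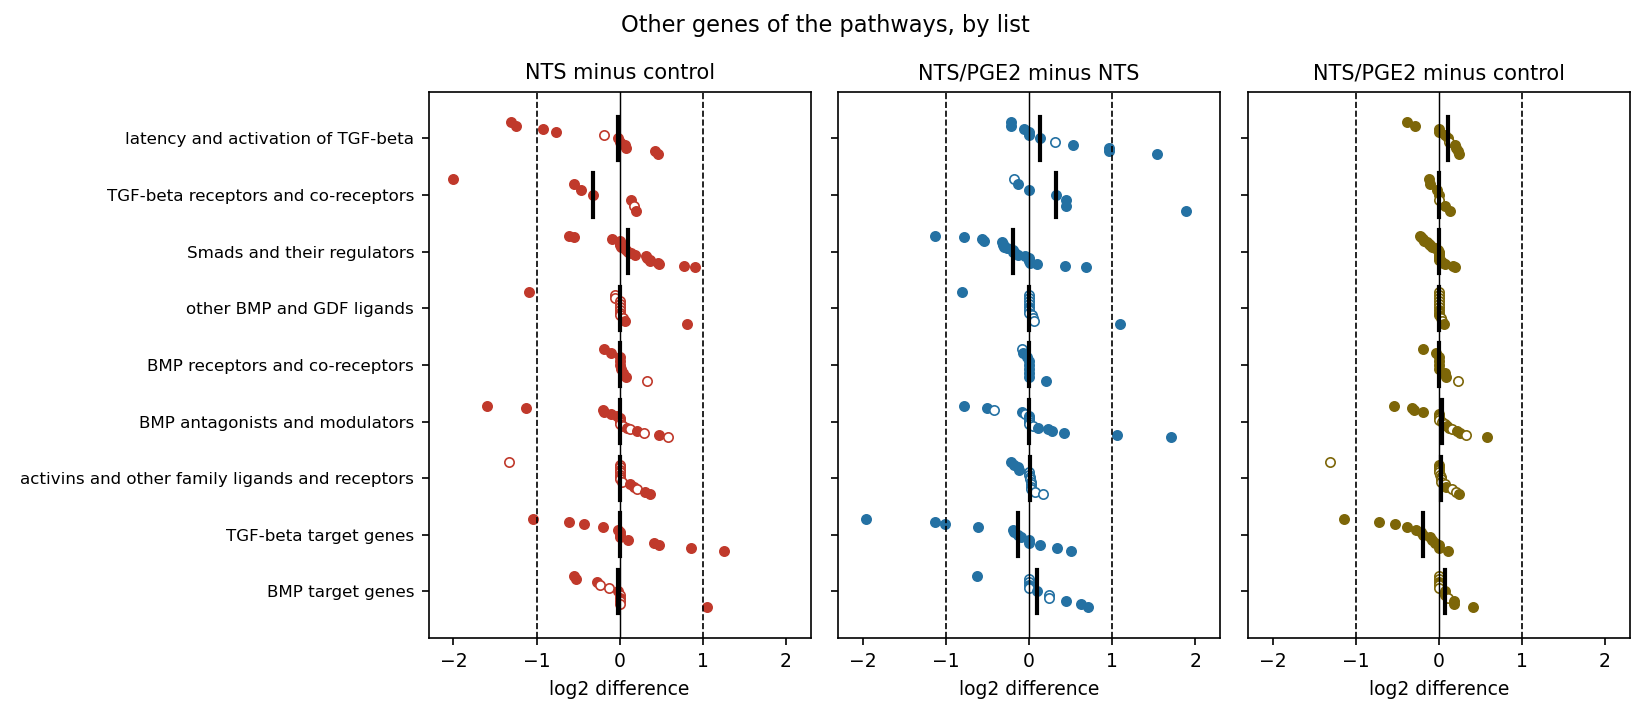
Log2 differences (horizontal axis) of the other pathway genes by list (vertical axis) in the 3 comparisons, 1 point per gene, filled where the gene passed the filter, with a bar at the list's median and dashed lines at 2-fold. Genes of most lists lie on both sides of 0 on the NTS array, and in the comparison of NTS/PGE2 with control the only filled point beyond 2-fold is Acta2 at -1.14.

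The secreted antagonists and modulators of BMPs held 2 of the 7 pathway genes that were at least 2-fold lower in the first comparison. Sostdc1 (USAG-1), an antagonist of BMP7 made in the distal nephron, read 11.37 in control, 9.78 in NTS and 10.83 in NTS/PGE2 kidney. Its differences were -1.59 and 1.05, and -0.54 remained against control. Chrdl1, a chordin-like BMP binder, read 7.49, 6.37 and 8.07, with differences of -1.12 and 1.70, so that NTS/PGE2 stood 0.58 above control. Its NTS value lay below the array's median. Nbl1 (DAN), another antagonist, went the other way, with 8.27, 8.74 and 7.95. The 17 measured genes of this list had a median of 0 in the first comparison, with 0 at least 2-fold higher beside these 2. In the second comparison 2 were at least 2-fold higher. Of all genes that passed the filter, 5.42% were that much lower in the first comparison and 4.15% higher in the second. Crim1 and Twsg1, which bind BMPs, differed by -0.10 and -0.03 on the NTS array. Bmp4, Sostdc1 and Chrdl1 were thus lower on the NTS array, while Bmp7 differed by -0.10.

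**Figure D4:**
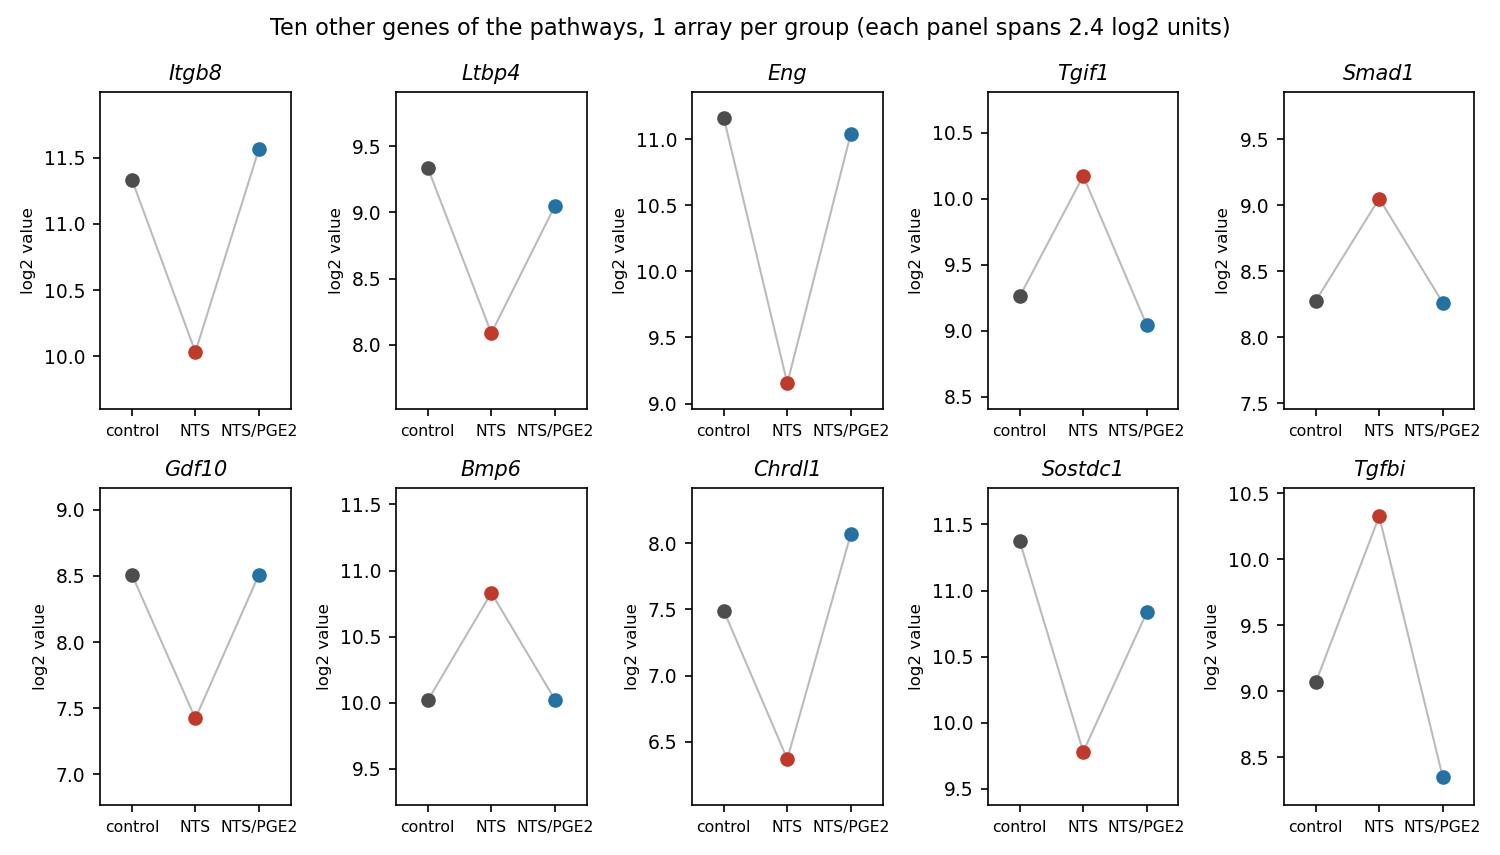
Log2 values (vertical axis) of 10 pathway genes on the control, NTS and NTS/PGE2 arrays (horizontal axis), 1 point per array, in panels of equal height in log2 units. Itgb8, Ltbp4, Eng, Gdf10, Chrdl1 and Sostdc1 are lowest on the NTS array and Tgif1, Smad1, Bmp6 and Tgfbi highest there; Chrdl1 is highest on the NTS/PGE2 array, at 8.07, and Tgfbi is lowest there, at 8.35.

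Genes known to respond to TGF-beta lay on both sides of control with NTS, and mostly below control with NTS/PGE2. With NTS, 5 of 13 measured were higher and 5 lower, with a median of 0. At 2-fold, 1 was above control and 1 below, beside 2.70% and 5.42% of all genes that passed the filter. Tgfbi, a matrix protein induced by TGF-beta, read 9.07, 10.32 and 8.35 on the control, NTS and NTS/PGE2 arrays, with differences of 1.26, -1.97 and, against control, -0.71. Junb, a transcription factor of the AP-1 family, differed by 0.86 in the first comparison and -1.13 in the second. Bhlhe40, another transcription factor, differed by 0.48 and -1.01. Acta2, smooth muscle actin, read 11.45, 10.41 and 10.31, at -1.04 and -1.14 from control, so both treated arrays were low. Snai2, a repressor of epithelial genes, read 8.08, 7.47 and 7.97. Ccn2 (CTGF), a classical target, read 11.74 on all 3 arrays. For NTS/PGE2 against NTS, 3 of 13 genes were at least 2-fold lower and 0 higher, beside 3.28% and 4.15% of all genes that passed. At any size 8 were lower and 3 higher, with a median of -0.14. For NTS/PGE2 against control, 10 of the 13 were lower and 1 higher, with a median of -0.19. Of all 19938 genes, 5837 and 5486 were lower and 6996 and 6124 higher in these 2 comparisons. Several of the TGF-beta target genes also answer to other pathways.

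Of 11 targets of BMP signalling measured, 1 was higher and 6 were lower with NTS than in control. In the second comparison 6 were higher and 1 lower, and in the third 6 were higher and 0 lower. These counts include the dim Hey1 and Hamp, which did not pass the filter. Of all 19938 genes, 6540, 6996 and 6124 were higher and 6029, 5837 and 5486 lower in the 3 comparisons. The filter was passed by 6 of the 11, and 1 stood more than 2-fold above control with NTS, beside 2.70% of all genes. That was Id3, an inhibitor of differentiation, which read 9.48, 10.53 and 9.90. Its relatives Id1 and Id4 were lowest on the NTS array, with 10.05, 9.50 and 10.12 for Id1 and 9.98, 9.45 and 10.16 for Id4. Id2 read 12.94, 12.92 and 13.01, differences within the SD. The list's median was -0.02 in the first comparison and 0.09 in the second.

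Activins and the remaining family ligands and receptors were mostly dim, with 4 of 14 measured genes passing the filter and 0 of them 1.5-fold different in any comparison. Inhbb, an activin subunit, was the largest of these at 0.37 for NTS against control. Acvr1c (ALK7), a type I receptor known from fat, stood out only on the control array, with 6.77 there but 5.44 and 5.46 on the treated arrays. All 3 values lay below the array medians, and both treated values below the 25th percentile. The fat markers Adipoq, at 9.18, 4.70 and 4.88, and Cidea, at 9.25, 5.73 and 5.20, were likewise high on the control array alone, and their part in this difference was not tested.

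Over all 9 lists, 111 other pathway genes were measured and 78 passed the filter in each comparison. On the NTS array 2 were at least 2-fold higher than on control and 7 lower, which is 2.56% and 8.97% of those passing, beside the 2.70% and 5.42% of all genes. For NTS/PGE2 against NTS the counts were 5 higher and 4 lower, 6.41% and 5.13%, beside 4.15% and 3.28%. For NTS/PGE2 against control they were 0 higher and 1 lower, 0% and 1.28%, beside 0.0607% and 0.659%. The median difference of these genes was 0 in every comparison, as for all genes, and 21 of the 111 had exactly equal values on all 3 arrays.

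Markers of several kidney cell types stood lower on the NTS array together with Bmp4 and Ltbp1. In whole kidney, fewer cells of a type and less RNA per cell cannot be told apart. With NTS all 10 endothelial markers stood below control, 6 of them at least 2-fold, beside 5.42% of all genes that passed the filter. Their summed linear signal was 12837 in control, 4778 in NTS and 11164 in NTS/PGE2 kidney. The sum over 10 proximal tubule markers was 63892, 21164 and 65770, that over 8 loop and distal tubule markers 40153, 23133 and 44514, that over 9 collecting duct markers 11747, 5874 and 11282, and that over 9 fibroblast and mesangial markers 7022, 3929 and 5000. Most of this last difference lay in Dcn, the decorin gene, at 11.68, 9.13 and 10.79, and without it the sum over 8 markers was 3749, 3370 and 3235. Without Umod, the brightest loop and distal tubule marker, the sum of that list was 26840, 10386 and 30786. No marker of these lists lay below the 25th percentile on any array except Lum, a fibroblast proteoglycan gene, on the NTS array. The fibroblast and mesangial list was itself divided, with Pdgfra and Pdgfrb at -1.33 and -1.22 and the collagen gene Col1a1 at 2.06 in the first comparison. The part of these cell types in the differences of Bmp4, Ltbp1, Eng and Sostdc1 was not tested. The podocyte sum was 4044, 4348 and 4173 over 7 markers, and the macrophage sum 3994, 4821 and 3124 over 11. Single macrophage markers went both ways with NTS, with 7 lower, 3 higher and a median of -0.12. All 3 higher ones were 2-fold or more above control, and 2 were as far below. Of all genes that passed, 2.70% and 5.42% were. The part of these cells in the values of Tgfbr1 and Tgfbi was not tested.

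**Figure D5:**
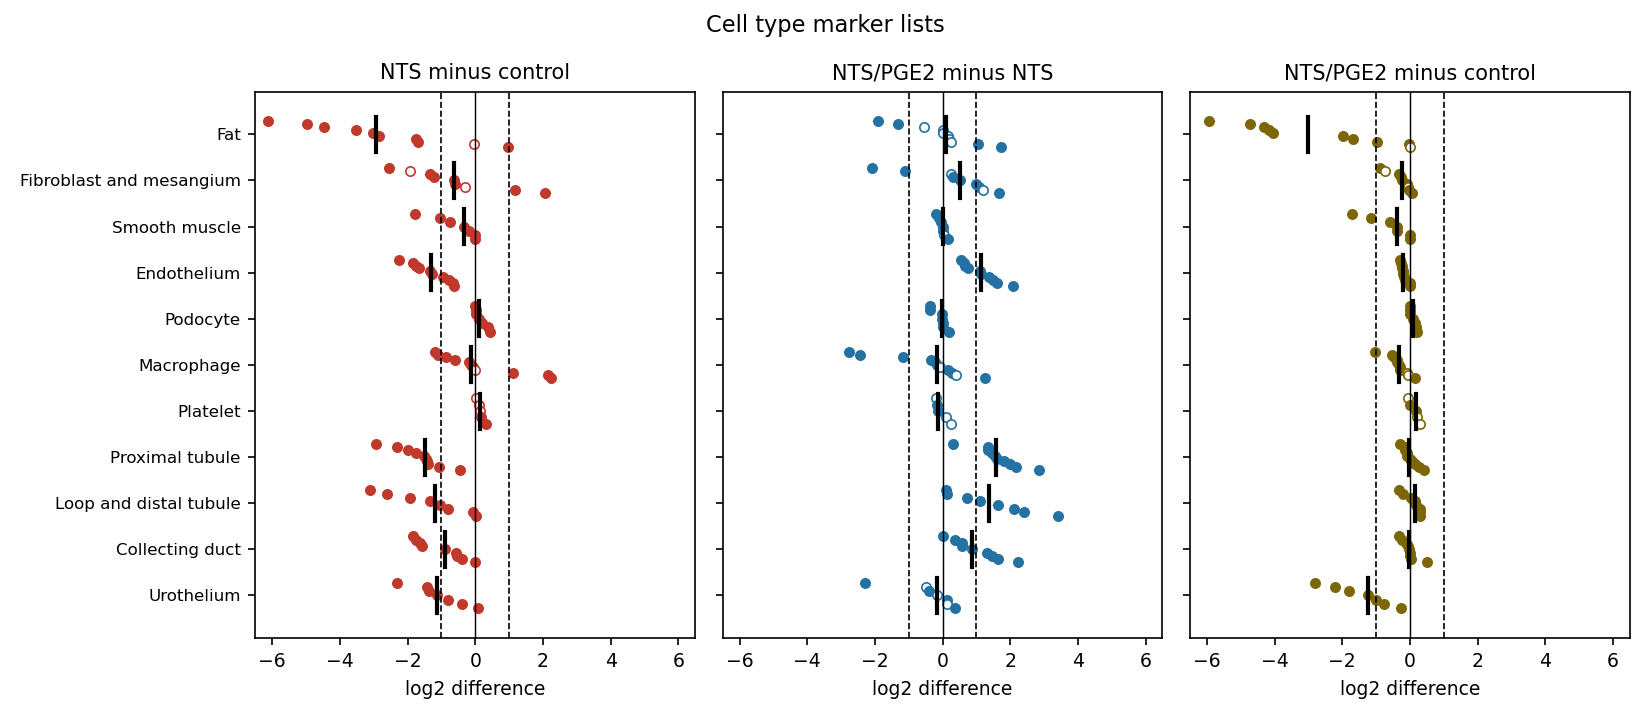
Log2 differences (horizontal axis) of cell type markers by list (vertical axis) in the 3 comparisons, 1 point per gene, filled where the gene passed the filter, with a bar at the list's median and dashed lines at 2-fold. Endothelial, proximal tubule, loop and collecting duct medians are negative for NTS against control, at -1.31, -1.48, -1.19 and -0.91, and fat stands low on both treated arrays, with medians of -2.94 and -3.02 against control.

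For the differences that remained between NTS/PGE2 and control, markers of fat, urothelium and smooth muscle were lower on the NTS/PGE2 array as well. Mostly smaller differences the same way stood in 10 of 11 macrophage markers (median -0.32), 8 of 9 fibroblast and mesangial markers (median -0.23) and 9 of 10 endothelial markers (median -0.21), with Lyz2 at -1.03 and Dcn at -0.89. At any size, 5486 of all 19938 genes were lower and 6124 higher. Of the 9 fat markers that passed the filter, 7 were at least 2-fold lower. So were 4 of 7 urothelial and 2 of 7 smooth muscle markers, beside 0.659% of all genes that passed. The urothelial sum was 2380, 1219 and 823 on the control, NTS and NTS/PGE2 arrays and the smooth muscle sum 5528, 3506 and 3391. Without Krt19, the brightest urothelial marker, the first sum was 1942, 752 and 728. Without Acta2, the brightest smooth muscle marker, the second was 2723, 2142 and 2119. The list of smooth muscle markers holds Acta2 and Tagln, which also stand among the TGF-beta targets. The part of these tissues and cells in the lower NTS/PGE2 values of Ltbp1, Bmp2, Tgfb3 and Acta2 was not tested.

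Bmp4 had the largest range over the 3 arrays among the members that passed the filter, 0.99. The 3 genes nearest to it in pattern were Pde6d, Slco4c1 and Cd36, with Euclidean distances of 0.0083, 0.011 and 0.014 log2 units between the 3 values after each gene was centred on its mean. They were found among 10171 genes. Pde6d, a prenyl-binding protein gene, read 10.55, 9.56 and 10.37 on the control, NTS and NTS/PGE2 arrays, Slco4c1, an organic anion transporter gene, 8.10, 7.10 and 7.93, and Cd36, a fatty acid receptor gene, 11.52, 10.51 and 11.32. With 3 arrays such likeness rests on very few values.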

How the data were processed

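Total RNA of kidney, 250 ng per array, was labelled with biotin and hybridised to 3 Affymetrix arrays, 1 per group; groups were taken from the labels' titles. For the deposited log2 values the authors used Affymetrix Expression Console and RMA, per the submitters' processing notes. The sources used here give neither versions nor a build. RMA corrects background, equalises the arrays' distributions and summarises probes by median polish, which can understate small differences.

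Of 35556 probe sets, 21789 with 1 gene symbol in the platform annotation were used; those with several numbered 1621 and those unnamed here 12146. Of the symbols, 21698 were checked through gene identifiers of GRCm38.p6, and 0 changed. Probe sets of a gene were averaged. Differences of log2 values were computed with pandas 2.3.3 in Python 3.11.15. A gene counted if the higher of its values reached its array's median, and as different at 2-fold or, as an alternative, 1.5-fold. No test was run. The calculation was tested on simulated data. The members, lists and rules were chosen with earlier results of these data known. Named genes were all members, up to 4 genes per list and comparison with the largest difference among those that passed the filter, up to 3 markers per list, and the 3 genes nearest in pattern to the member with the largest range; other genes named were chosen after their values were seen. Of the 116 other pathway genes listed, 5 were not analysed here. Sums of marker lists without their brightest gene were added after the data were seen.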

Additional observations from a re-analysis of the deposited data

How the results depend on the processing

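There were 6 alternatives. The counts of members, of other pathway genes and of all genes stayed within 1.5 times under array centring, the brightest probe set, and counting probe sets with several symbols. Without the filter on dim genes, and with the filter at the 25th percentile, the pathway genes at least 2-fold lower for NTS/PGE2 against control numbered 2 in place of 1, since Acvr1c then counted beside Acta2. A 1.5-fold rule moved more counts. For NTS against control it gave 2 members lower, 6 other pathway genes higher and 11 lower, and 898 and 1406 of all genes. For NTS/PGE2 against NTS it gave 1 member higher, 10 pathway genes higher and 9 lower, and 1167 and 1045 of all genes. For NTS/PGE2 against control it gave 2 pathway genes lower, and 64 and 248 of all genes. Centring moved the differences of the 58 members and named genes by at most 0.03. Bmp4 and Ltbp1 lay so near 2-fold that the rule's limit decides whether they count. No paired analysis was possible because each group had 1 array, and no array could be left out. The control array was the only one of its group, so comparisons with it could not be repeated without its fat transcripts. Signal over background could not be judged, since no scanner values were analysed here.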
